A study of Mus musculus with 10 samples.

Results

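The 58 genes described here encode proteins with which synaptic vesicles dock, fuse, are retrieved and are filled with transmitter. The rule lists them by symbol and uses no measured value, but the list was drawn up with earlier results of these data known. Each is named on the arrays by at least 1 probe set that names no other gene. They are 58 of 18193 genes so named, and all 58 were among the 14702 genes tested. By role they comprise 20 SNAREs and their partners, 9 synaptotagmins, 9 active zone and priming genes, 8 endocytosis genes and 12 genes of the vesicle membrane.

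Tissue came from mice with the CAGGS-CreER transgene and the R26-SmoM2 allele, which received tamoxifen on postnatal day 10 (1 mg for each 40 g that the animal weighed). Tamoxifen switches on the recombinase CreER, which frees the expression of SmoM2, a Smoothened mutant that keeps Hedgehog signalling active. CAGGS is a promoter active in most cell types, so recombination was not directed to a particular cell. RNA was taken from medulloblastoma, a tumour of the cerebellum, and from cerebellar tissue beside it, which the labels call wild type although it shared both alleles and the tamoxifen. On each of 2 Affymetrix chips, 430A and 430B, 3 medulloblastoma and 2 cerebellum arrays were run, labelled as biological replicates. Nothing in the labels says which mice they came from or at what age tissue was taken. The p-values therefore reflect the spread of these arrays alone, and some of it may be technical.

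Regulated release works as a cycle. Vesicles are filled by transporters, tethered by scaffolds of the active zone, primed by Munc13 and CAPS proteins, and fused when SNARE proteins of vesicle and plasma membrane zip together after synaptotagmins bind calcium. NSF and its adaptors then pull the SNARE complexes apart, and clathrin, dynamin and their helpers retrieve the membrane. In the mature cerebellum granule neurons form the most abundant terminals, the parallel fibres, and Purkinje cells and interneurons form inhibitory terminals.

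Array medians lay between 33.3 and 35.9 intensity units on 430A and between 22.5 and 24.0 on 430B. Log2 values correlated across the 430A probe sets with r from 0.960 to 0.981 between tumours, from 0.828 to 0.859 between a tumour and a cerebellum sample, and 0.981 between the cerebellum samples. On 100 probe sets that both chips hold, the 430A array of tumour 1 matched the 430B array numbered 2 best, tumour 2 matched number 3, and tumour 3 matched number 1 (r = 0.864, 0.878 and 0.832 of centred values). The tumour numbers were therefore not carried across chips. The 430B arrays of tumours 1 and 2 were also brighter on these probe sets, by 0.63 to 0.77 log2 units against each 430A tumour array, so log2 fold changes from 430B are also given without them. A single 430B tumour array is then left, and these values carry no test. Without the 2 brighter arrays all 27 called probe sets of the members on 430B kept their direction, at 0.869 to 1.364 times the log2 fold change with all arrays. So did the 9 called 430B probe sets of the other vesicle genes described at the end, at 0.582 (Ppfia3, an active zone gene) to 1.2 times. The marker genes of both tissues went with the labels. All 9 mature granule neuron genes tested were lower in medulloblastoma, and on 430A their summed intensity was 338 to 411 in tumours and 7360.4 to 8275 in cerebellum. All 6 Purkinje cell genes were lower, with sums of 223 to 469 in tumours and 13058 to 16559 in cerebellum. Of 10 granule neuron precursor genes 9 were higher, with sums of 3289 to 4130.0 in tumours and 313 to 467 in cerebellum, and all 9 proliferation genes were higher, with sums of 4834 to 5498 in tumours and 350.3 to 678 in cerebellum. No marker on 430A was at 1, the value that 298 to 365 probe sets of each array hold. The part of these cell types in the results below was not tested.

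Promoter windows are shown for 4 members that the results turn on, namely a synapsin and a priming factor with matches to the element of the neuronal gene repressor REST, and the glutamate transporters that moved in opposite directions. They are RefSeq sequences of GRCm38.p6, read 5′ to 3′ on the gene's strand. For Syn1 the 250 bases before the start at chrX:20920919-20921168 (minus strand) carry in capitals the left part of the REST element, TTCAGCACC, and the cyclic AMP response element, TGACGTCA. For Unc13a the stretch at chr8:71671727-71671753 (minus strand), 27 bases just downstream of the start, carries in capitals the right part of the REST element and then the left part, both on the opposite strand and thus spelt in reverse complement. For Slc17a7 at chr7:45163671-45163920 and Slc17a6 at chr7:51621580-51621829 (both plus strand), the 250 bases before the start carry in capitals each GC box, CCGCCC on either strand.
Syn1: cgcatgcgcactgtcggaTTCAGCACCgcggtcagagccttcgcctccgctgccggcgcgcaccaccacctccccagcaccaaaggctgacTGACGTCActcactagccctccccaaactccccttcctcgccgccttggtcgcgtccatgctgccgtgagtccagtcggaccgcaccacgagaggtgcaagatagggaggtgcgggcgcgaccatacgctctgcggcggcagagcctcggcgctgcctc
Unc13a: GGCGCTGTCCgcgcccccGGTGCTGAA
Slc17a7: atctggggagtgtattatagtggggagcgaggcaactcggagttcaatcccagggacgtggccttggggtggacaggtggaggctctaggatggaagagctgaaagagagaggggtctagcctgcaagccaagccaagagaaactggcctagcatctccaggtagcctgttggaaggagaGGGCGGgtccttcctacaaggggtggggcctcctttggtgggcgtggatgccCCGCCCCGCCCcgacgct
Slc17a6: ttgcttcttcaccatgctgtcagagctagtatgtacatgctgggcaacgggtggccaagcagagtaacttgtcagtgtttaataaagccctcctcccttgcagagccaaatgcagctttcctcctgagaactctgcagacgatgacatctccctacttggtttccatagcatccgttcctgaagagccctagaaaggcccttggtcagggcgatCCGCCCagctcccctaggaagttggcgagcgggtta

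The promoter table held 44 of the 58 members among 27025 genes, coding and non-coding, and each window ran from 250 bases before the start to 50 after it. Slc17a6 has 2 windows in the table, and the upstream one is shown. TTCAGCACC occurred on either strand in 2 members, Syn1 and Unc13a, and in 0.433% of all genes. The right part occurred in Unc13a and in 0.167% of all genes. Both parts at their usual spacing, searched with no mismatch allowed in either part, occurred in 0 members and in 0.0407% of genes. In the Syn1 window shown, the bases that follow the left part at that spacing resemble the right part but differ from it. Joined elements with a mismatch were not searched, so their presence in members was not tested. TGACGTCA occurred in Napa, Sh3gl2 and Syn1 and in 2.03% of genes. The GC box occurred in 32 members (72.7%) and in 38.2% of genes, and the element of the factor NRF1 in 7 members (15.9%) and in 2.77% of genes. The 7 were Bsn, Dnm3, Snap23, Snap29, Stx12, Stxbp5 and Syp. The E-box CAGCTG occurred in 12 members (27.3%) and in 18.3% of genes, and CACGTG in 7 members (15.9%) and in 8.09%. All members encode proteins, so the shares of members and of all genes come from unlike sets. Shares among coding genes alone were not counted. GC boxes that lie close together, as in Slc17a7, can share a base. A match describes the letters in a window and does not show a bound site.

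The vesicle and exocytosis genes were mostly lower in medulloblastoma. In limma at an adjusted p below 0.05, 37 of 58 members (63.8%) were lower and 2 (3.45%) were higher, while 16% of all 14702 genes were lower and 10.7% higher. The count higher was 1 without cerebellum sample 1 or sample 2. The other 19 were not called. The median log2 fold change of the members was -0.98, against -0.05 over all genes, and 15 members were called at a log2 fold change of -2 or below, where 2.42% of all genes lay. In 43 members every tumour value was below both cerebellum values and in 2 every one was above, with 30.1% and 22.2% of all genes so placed. In pieces of tissue, fewer cells of a type and less RNA per cell cannot be told apart. The plot of fold changes by role shows that each role held members near -3 and members near 0.

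**Figure D1:**
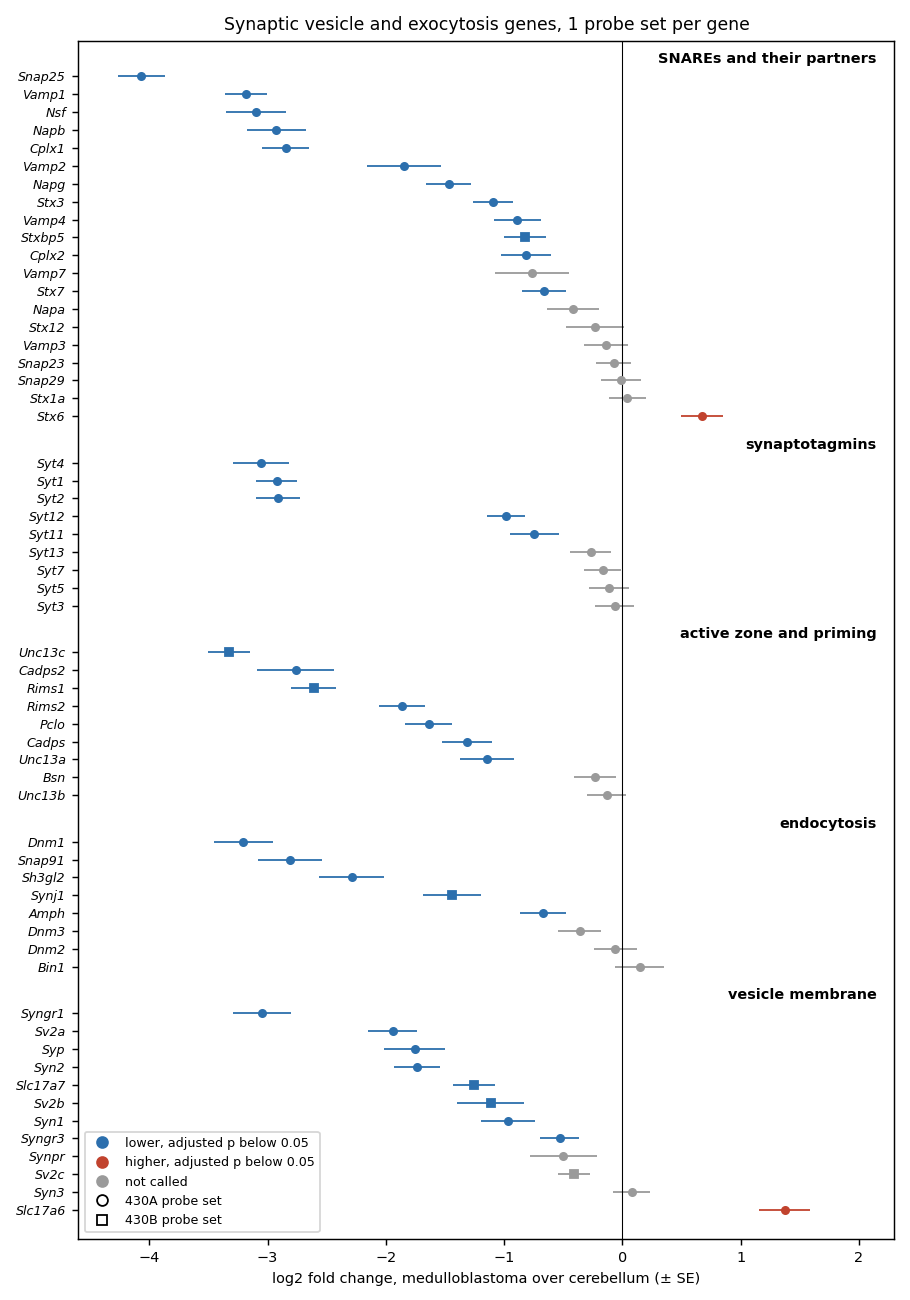
Log2 fold change of medulloblastoma over cerebellum for the 58 members, grouped by role, with bars of ± 1 SE from limma (3 medulloblastoma and 2 cerebellum arrays per chip). Circles are 430A and squares 430B probe sets, and colour gives the call at an adjusted p below 0.05, with 37 lower in blue, 2 higher in red and 19 not called in grey.

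Among the SNAREs and their partners, 12 of 20 were lower, 1 was higher and 7 were not called, with a median log2 fold change of -0.82. Snap25, the neuronal plasma membrane SNARE, had 203, 145 and 181 intensity units in medulloblastomas 1 to 3, against 2972 and 3408 in cerebellum samples 1 and 2. The groups were far apart, with means of 176 ± 29.7 (SD, n = 3) in medulloblastoma and 3190.2 ± 308 (SD, n = 2) in cerebellum. Its log2 fold change of -4.07 ± 0.20 (SE) was the 25th most negative of all 14702 genes (adjusted p = 3.82e-07 in limma), and its 430B probe set had -2.86, or -3.16 without the 430B arrays of tumours 1 and 2. Snap23, the broadly expressed relative of Snap25, had 33.1, 30.2 and 33.7 in medulloblastoma and 38.5 and 31.5 in cerebellum. Its groups overlapped, and it was not called (-0.07 ± 0.15, adjusted p = 0.756), nor was Snap29, another broadly expressed member (-0.01). The Snap23 values lay near the array medians, and low signal limits what they can show.

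The vesicle SNAREs of synapses, the synaptobrevins Vamp1 and Vamp2, were both lower. Vamp1 had 8.65, 13.2 and 8.77 in medulloblastoma and 189 and 258 in cerebellum, with a log2 fold change of -3.18 ± 0.18 (adjusted p = 7.1e-07). Vamp2 had 30.8, 53.5 and 18.0 in medulloblastoma and 111 and 218 in cerebellum, with a log2 fold change of -1.85 ± 0.31 (adjusted p = 8.24e-04). No tumour array reached the cerebellum values, although cerebellum sample 2 was well above sample 1 in Vamp2. Vamp3, or cellubrevin, the form of recycling endosomes in most cells, had 124, 113 and 117 in medulloblastoma and 139 and 124 in cerebellum and was not called by any of its 5 probe sets (-0.14 ± 0.18 for the chosen one). Vamp4, of the trans-Golgi network, was lower (-0.89 ± 0.20), a call that ended without cerebellum sample 1 (-0.84, adjusted p = 0.0579 in limma). Vamp7, of late endosomes and lysosomes, had -0.76 ± 0.31 and was not called, with medulloblastoma 2 at 63.3 and the other tumours at 150.3 and 162.

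The syntaxins differed from each other. Stx1a, the plasma membrane syntaxin of neurons, had 31.4, 28.8 and 20.9 in medulloblastoma and 26.1 and 25.2 in cerebellum, with overlapping groups and a log2 fold change of 0.04 ± 0.16 (adjusted p = 0.88). Its other probe set was higher in medulloblastoma, with 47.7, 47.1 and 44.1 against 23.6 and 23.6 in cerebellum (0.65 ± 0.14, adjusted p = 0.0045). The call and the size of the Stx1a difference therefore depended on the probe set, and neither probe set was lower. Stx3, a plasma membrane syntaxin of epithelia and sensory synapses, was lower (-1.09 ± 0.17). Stx7, of late endosomes, had 123, 128 and 131 in medulloblastoma and 212 and 210.3 in cerebellum, at -0.67 ± 0.19 log2 units (adjusted p = 0.0176), but the call ended without cerebellum sample 1 (-0.66), cerebellum sample 2 (-0.67) or medulloblastoma 1 (-0.65). Stx12, of recycling endosomes, was not called (-0.23).

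Stx6, a syntaxin of the trans-Golgi network, was the SNARE that was higher in medulloblastoma. It had 109, 90.0 and 109 in medulloblastoma and 56.7 and 59.7 in cerebellum, with no overlap and a log2 fold change of 0.67 ± 0.18 (adjusted p = 0.0132). Of its 5 tested probe sets 4 were higher. The call ended without cerebellum sample 1 (0.64, adjusted p = 0.114 in limma) or sample 2 (0.70, adjusted p = 0.0944), with a lone cerebellum array left in the fit.

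NSF is the ATPase that takes SNARE complexes apart, and the SNAP adaptors load it. Nsf had 86.4, 103 and 74.3 in medulloblastoma and 661 and 1135 in cerebellum, with a log2 fold change of -3.10 ± 0.25 (adjusted p = 5.36e-06). Napb, the brain adaptor, had 41.9, 61.6 and 43.6 in medulloblastoma and 366 and 612 in cerebellum (-2.93 ± 0.25, adjusted p = 6.64e-06). In both, all tumours were several times below the lower cerebellum sample, although 1 of 3 tested probe sets of Nsf (-0.07) and 1 of 6 of Napb (-0.11) were not called. Napa, the broadly expressed adaptor, had 225, 217 and 164 in medulloblastoma and 236 and 315 in cerebellum and was not called (-0.42 ± 0.22, adjusted p = 0.191), although its other probe set was lower (-0.89, adjusted p = 0.0024). Napg, a more distant adaptor, had 105, 96.9 and 110.0 in medulloblastoma and 309.8 and 321 in cerebellum (-1.47 ± 0.19), while its other probe sets had -0.41 and 0.07 and were not called.

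Complexins bind the assembled SNARE complex and hold it ready for calcium. Cplx1 had 225, 262 and 214 in medulloblastoma and 1535 and 2057 in cerebellum, at -2.85 ± 0.20 log2 units (adjusted p = 2.32e-06), and all 3 of its probe sets were lower. Cplx2 had 67.2, 106 and 83.4 in medulloblastoma and 146 and 175 in cerebellum, with a log2 fold change of -0.81 ± 0.21 (adjusted p = 0.0129). Its groups did not overlap either, but the call ended without cerebellum sample 2 (-0.69) or medulloblastoma 1 (-0.68). The other 2 probe sets of Cplx2, both on 430B, were not called, at -0.83 (adjusted p = 0.0792) and, for the brightest, -0.71 (adjusted p = 0.129), or -1.05 and -0.81 without the 430B arrays of tumours 1 and 2. Stxbp5, or tomosyn, which blocks SNARE assembly, had 72.9, 57.5 and 56.3 in medulloblastoma and 122 and 122 in cerebellum on 430B, with -0.83 ± 0.18 (adjusted p = 0.0098) and -0.93 without the 430B arrays of tumours 1 and 2. That call ended without cerebellum sample 1 (-0.82), cerebellum sample 2 (-0.83) or medulloblastoma 2 (-0.78), and 1 of its 3 probe sets had 0.12, or -0.17 without the 430B arrays of tumours 1 and 2.

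Of the 9 synaptotagmins 5 were lower, 0 were higher and 4 were not called, with a median log2 fold change of -0.74. Syt1, the calcium sensor of fast release in the forebrain, had 15.5, 21.8 and 15.1 in medulloblastoma and 221 and 255 in cerebellum, with a log2 fold change of -2.92 ± 0.17 (adjusted p = 8.96e-07). Syt2, the fast sensor of hindbrain synapses, had 15.1, 10.7 and 10.5 in medulloblastoma and 162 and 235 in cerebellum (-2.91 ± 0.18, adjusted p = 1.22e-06). Their fold changes differed by 0.01 log2 units. Tumour values of both lay near the 16 added to every intensity, which understates both fold changes. How far that sets their closeness was not tested. Syt4, a synaptotagmin of vesicles and secretory granules that differs from Syt1 in its calcium binding, had 60.3, 33.2 and 55.4 in medulloblastoma and 585 and 463 in cerebellum (-3.06 ± 0.24, adjusted p = 3.65e-06). All 3 genes were many times lower in every tumour, and all of their other probe sets were lower too.

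Syt11, a close relative of Syt4, had 155, 130.5 and 141 in medulloblastoma and 212 and 289 in cerebellum, with a log2 fold change of -0.74 ± 0.21 (adjusted p = 0.0182). Its groups did not overlap, but the call ended without cerebellum sample 2 (-0.53) or medulloblastoma 3 (-0.74), and its brightest probe set had -0.34. Syt12, a synaptotagmin that does not bind calcium, had 27.2, 19.4 and 20.9 in medulloblastoma and 54.0 and 66.5 in cerebellum (-0.98 ± 0.16, adjusted p = 6.37e-04). The calcium sensors Syt3 (-0.06) and Syt5 (-0.11) and the calcium-independent Syt13 (-0.27) were not called. Syt7, the sensor of slow release and of lysosome fusion, was not called by its 430A probe set (-0.17), while its 3 probe sets of 430B had -1.64, -2.33 and -1.78 and were all lower, with -1.53, -2.19 and -1.71 without the 430B arrays of tumours 1 and 2.

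Scaffold and priming genes of the active zone had the most negative median of the roles, -1.64, with 7 of 9 lower and 0 higher. The priming factor Unc13c, or Munc13-3, a form concentrated in cerebellar granule neurons, had 12.3, 18.9 and 18.7 in medulloblastoma and 283 and 340 in cerebellum on 430B. Its log2 fold change was -3.33 ± 0.18 (adjusted p = 5.59e-06), its 3 probe sets were all lower, and it had -3.23 without the 430B arrays of tumours 1 and 2. Unc13a, the main priming factor of brain synapses, had 16.5, 40.9 and 24.2 in medulloblastoma and 64.2 and 91.8 in cerebellum, with -1.14 ± 0.23 (adjusted p = 0.0028). Both were lower in every tumour, but medulloblastoma 2 had more Unc13a than the other tumours. Unc13b, which other tissues also express, had 21.9, 15.4 and 24.1 in medulloblastoma and 28.9 and 19.4 in cerebellum and was not called (-0.13 ± 0.17).

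The CAPS proteins prime dense-core vesicles, and Cadps2 is abundant in granule neurons. Cadps2 had 33.0, 109 and 72.4 in medulloblastoma and 554 and 521 in cerebellum (-2.76 ± 0.33, adjusted p = 6.98e-05). Cadps had 78.5, 77.5 and 111 in medulloblastoma and 223 and 263 in cerebellum (-1.31 ± 0.21, adjusted p = 6.13e-04). The tumours differed more from each other in Cadps2 than in Cadps, with medulloblastoma 2 highest. The scaffold Rims1, which links vesicles to calcium channels, had 49.4, 41.5 and 53.0 in medulloblastoma and 381 and 367 in cerebellum on 430B (-2.61 ± 0.19, adjusted p = 1.3e-05), and -2.50 without the 430B arrays of tumours 1 and 2. Its relative Rims2 had 23.2, 41.6 and 27.1 in medulloblastoma and 159 and 144 in cerebellum (-1.86 ± 0.20), but 2 of its 5 probe sets had 0.07 and 0.32 and were not called.

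Piccolo and bassoon are the giant scaffolds of the active zone. Pclo had 57.7, 78.2 and 76.1 in medulloblastoma and 230.3 and 276 in cerebellum (-1.64 ± 0.20, adjusted p = 9.34e-05), and its other probe sets had -2.88 and -2.64. All 3 were lower, so the size of the difference and not its direction depended on the probe set. Bsn had 28.6, 24.7 and 16.5 in medulloblastoma and 24.8 and 35.4 in cerebellum on 430A and was not called (-0.23), while a brighter probe set of 430B had 122, 136 and 136 against 199 and 312 in cerebellum and was lower (-0.85, adjusted p = 0.0355), with -0.80 without the brighter pair of 430B tumour arrays.

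Of the 8 endocytosis genes 5 were lower, 0 were higher and 3 were not called, with a median of -1.06. The count of lower genes was 3 without cerebellum sample 2. Dnm1, the neuronal dynamin that cuts vesicles from the membrane, had 35.0, 45.0 and 34.7 in medulloblastoma and 359 and 646 in cerebellum (-3.21 ± 0.25, adjusted p = 3.77e-06). Dnm2, the dynamin of all cells, had 63.8, 84.99 and 67.3 in medulloblastoma and 79.2 and 71.3 in cerebellum (-0.06 ± 0.18, adjusted p = 0.849). The Dnm2 groups overlapped, and of its 6 tested probe sets 1 was higher (0.48, adjusted p = 0.0376). Dnm3, a dynamin of brain and testis, had 105, 104 and 91.3 in medulloblastoma and 132 and 134 in cerebellum on 430A and was not called (-0.36 ± 0.18), but its 4 probe sets of 430B were all lower, with -3.16, -2.71, -2.18 and -1.01, or -3.23, -2.88, -2.37 and -1.24 without the brighter pair of 430B tumour arrays. The brightest of them had 42.0, 37.7 and 36.1 in medulloblastoma and 488 and 458 in cerebellum, with no overlap.

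Snap91, or AP180, which assembles clathrin on vesicle membrane, had 52.6, 106 and 51.7 in medulloblastoma and 521 and 611 in cerebellum (-2.81 ± 0.27, adjusted p = 1.56e-05). Sh3gl2, the endophilin of neurons, had 167, 299 and 173 in medulloblastoma and 865 and 1315 in cerebellum (-2.29 ± 0.28, adjusted p = 8.21e-05). In both, medulloblastoma 2 had the highest tumour value and still lay below the cerebellum samples. Synj1, the lipid phosphatase that strips the clathrin coat, had 231, 179 and 193 in medulloblastoma and 541 and 601 in cerebellum on 430B, with -1.44 ± 0.25 (adjusted p = 0.0025) and -1.49 without the brighter pair of 430B tumour arrays. The Synj1 call ended without cerebellum sample 2 (-1.37, adjusted p = 0.0521 in limma), and 1 of its 4 probe sets had 0.07.

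Amphiphysins bend membrane and recruit dynamin. Amph, the neuronal form, had 241, 226 and 274 in medulloblastoma and 427 and 378 in cerebellum (-0.67 ± 0.20, adjusted p = 0.0224), and the call ended without cerebellum sample 1 (-0.59), cerebellum sample 2 (-0.76) or medulloblastoma 1 (-0.66). Bin1, the form of muscle and many other tissues, had 111, 88.3 and 80.0 in medulloblastoma and 69.3 and 96.4 in cerebellum, with overlapping groups (0.15 ± 0.20, not called).

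Of the 12 vesicle membrane genes 8 were lower, 1 was higher and 3 were not called, with a median of -1.04. Without cerebellum sample 2 the count of lower genes was 5. Slc17a6, the vesicular glutamate transporter that developing granule neurons use, was the highest of all members relative to cerebellum. It had 196, 159 and 197 in medulloblastoma and 75.8 and 48.2 in cerebellum, with a log2 fold change of 1.37 ± 0.22 (adjusted p = 5.27e-04). Every tumour exceeded both cerebellum samples, and its other probe set was higher too, with 124, 112 and 148 in medulloblastoma and 69.7 and 36.6 in cerebellum (1.10 ± 0.23). Slc17a7, the transporter of mature parallel fibre terminals, had 23.2, 18.6 and 18.7 in medulloblastoma and 55.4 and 87.6 in cerebellum on 430B. It was lower, with -1.25 ± 0.18 (adjusted p = 7.92e-04) and -1.31 without the 430B arrays of tumours 1 and 2. Its difference from Slc17a6 came to -2.63 log2 units, which was not tested per array because the genes lie on different chips.

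Synaptogyrin, synaptophysin and the SV2 proteins are abundant membrane proteins of the vesicle. Syngr1 had 52.2, 94.0 and 50.01 in medulloblastoma and 599 and 680.4 in cerebellum (-3.05 ± 0.25, adjusted p = 5.36e-06), but its other tested probe set had 65.0, 36.4 and 52.7 in medulloblastoma and 36.0 and 29.1 in cerebellum (0.45, adjusted p = 0.106). The probe sets of Syngr1 therefore differed in sign. Syp had 58.3, 89.2 and 53.8 in medulloblastoma and 203 and 333 in cerebellum (-1.76 ± 0.26, adjusted p = 3.04e-04), with -0.31 and no call for its other probe set. Sv2a, the general form of the SV2 transporter-like proteins, had 31.4, 36.7 and 32.3 in medulloblastoma and 136 and 222 in cerebellum (-1.94 ± 0.21, adjusted p = 3.48e-05). Syp and Sv2a did not overlap between groups. Sv2b had 271, 205 and 149 in medulloblastoma and 442 and 474 in cerebellum on 430B, with -1.11 ± 0.28 (adjusted p = 0.0219) and -1.52 without the 430B arrays of tumours 1 and 2, and the call ended without cerebellum sample 1 (-1.16), cerebellum sample 2 (-1.06) or medulloblastoma 2 (-1.12). It also ended with the mean over probe sets (-0.84, adjusted p = 0.0885 in limma), and the other Sv2b probe set was not called, at -0.56, or -1.18 without the 430B arrays of tumours 1 and 2. Sv2c had -0.41 and was not called, but passed without medulloblastoma 3 (-0.47, adjusted p = 0.0286 in limma), while it had -0.29 without the 430B arrays of tumours 1 and 2.

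Synapsins tie vesicles into a reserve pool. Syn2 had 31.5, 49.8 and 40.4 in medulloblastoma and 153 and 191 in cerebellum (-1.74 ± 0.20, adjusted p = 5.24e-05), although its brightest probe set, on 430B, was not called (-0.51, adjusted p = 0.119, and -0.30 without the brighter pair of 430B tumour arrays). Syn1, whose promoter is shown above, had 34.9, 55.0 and 35.0 in medulloblastoma and 73.0 and 124 in cerebellum (-0.97 ± 0.23, adjusted p = 0.0071). No tumour reached a cerebellum value in either gene, but the Syn1 call ended without cerebellum sample 2, where the log2 fold change was -0.64 (adjusted p = 0.117 in limma). Syn3, another synapsin, was not called (0.08). Syngr3 was lower (-0.53), a call that ended without cerebellum sample 2 (-0.36), medulloblastoma 1 (-0.57) or medulloblastoma 3 (-0.45). The Syngr3 call also ended with no filter on dim probe sets (adjusted p = 0.0509 in limma) and with the mean over probe sets (-0.38, adjusted p = 0.0598), and its other probe set was not called (-0.23, adjusted p = 0.247). Synpr, a relative of synaptophysin, was not called (-0.50).

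**Figure D2:**
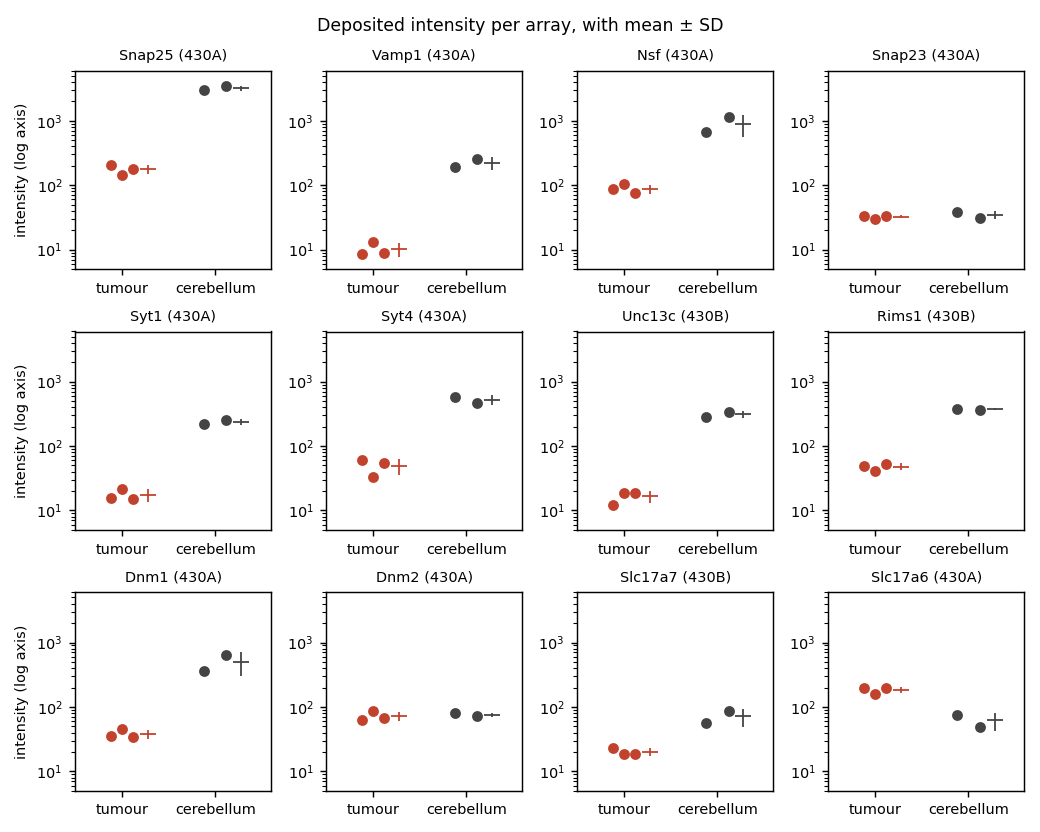
Deposited intensity per array (log axis) of 12 members in medulloblastoma (left of each panel, red, n = 3) and cerebellum (right, dark grey, n = 2), with the mean as a horizontal line and ± 1 SD as a vertical line. Snap25, Vamp1, Nsf, Syt1, Syt4, Unc13c, Rims1, Dnm1 and Slc17a7 lie lower in every tumour, Slc17a6 lies higher, and Snap23 and Dnm2 overlap.

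Members that serve neurons or regulated secretion were set apart from members that most cells express. The division was made from textbook knowledge, but with earlier results of these data known. It is not sharp, since Syt7, a sensor of slow release, and Stx3, also of sensory synapses, were counted as broadly expressed. Of the 42 members of neuronal or regulated secretion 32 (76.2%) were lower and 1 was higher, with a median log2 fold change of -1.38. Of the 16 broadly expressed members 5 (31.2%) were lower and 1 (6.25%) was higher, with a median of -0.20. Over all genes 16% were lower and 10.7% higher. The shares higher, 6.25% of the broadly expressed and 2.38% of the neuronal or regulated members, rest on 1 gene each. They are too small in number to be set apart from that of all genes. The 5 were Nsf, Napg, Stx3, Vamp4 and Stx7, and without cerebellum sample 1 the count was 3. By the chosen probe sets Nsf was the most negative of the broadly expressed members at -3.10, followed by Napg at -1.47. The 5 lower became 6 with the brightest probe set, as Syt7 joined (-1.64). They also became 6 with the mean over probe sets, as Napa joined (-0.65). In each of these settings 31 members of neuronal or regulated secretion were lower. The difference between the divisions was not tested.

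Related genes, not all with the same task, were compared within arrays in 17 pairs, of which 15 could be tested on the same chip. With 3 and 2 arrays the exact permutation test, two-sided, cannot go below p = 0.1, and 10 pairs reached it (adjusted exact p = 0.15 over the 15 pairs). In 9 of those 10 the first-named gene was the lower one relative to its partner. The order of names follows no rule and was written with earlier results known, so no conclusion is drawn from that count. The log2 fold changes differed by -3.99 for Snap25 and Snap23, by -3.15 for Dnm1 and Dnm2, by -3.04 for Vamp1 and Vamp3, by -2.51 for Napb and Napa and by -1.71 for Vamp2 and Vamp3. They differed by -2.18 for Syt1 and Syt11, by -2.04 for Cplx1 and Cplx2, by -0.82 for Amph and Bin1 and by -0.77 for Syn2 and Syn1. The ratio of Stx1a to Stx7 ran the other way, at 0.71. In each of these 10 pairs all tumour arrays lay on one side of both cerebellum arrays, which the smallest exact p requires.

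The other 5 pairs on the same chip had larger p-values. Syt1 and Syt4 differed by 0.13 (exact permutation p = 0.8, adjusted 0.857), and Syt2 and Syt1 by 0.01 (p = 1.0, adjusted 1.0). Unc13a and Unc13b differed by -1.01 (exact p = 0.3, adjusted 0.346), with medulloblastoma 2 close to cerebellum sample 1 at -0.36 and -0.39 log2 units from the cerebellum mean. Cadps and Cadps2 differed by 1.45 and Dnm3 and Dnm2 by -0.30 (exact p = 0.2 and adjusted 0.25 for each). Dnm3 stands in this pair by its 430A probe set, while its 4 probe sets of 430B were all lower, at -3.16 to -1.01. Without the 430B arrays of tumours 1 and 2 those had -3.23 to -1.24. Sv2b and Sv2a, which lie on different chips, differed by 0.83, and by 0.42 without the 430B arrays of tumours 1 and 2.

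**Figure D3:**
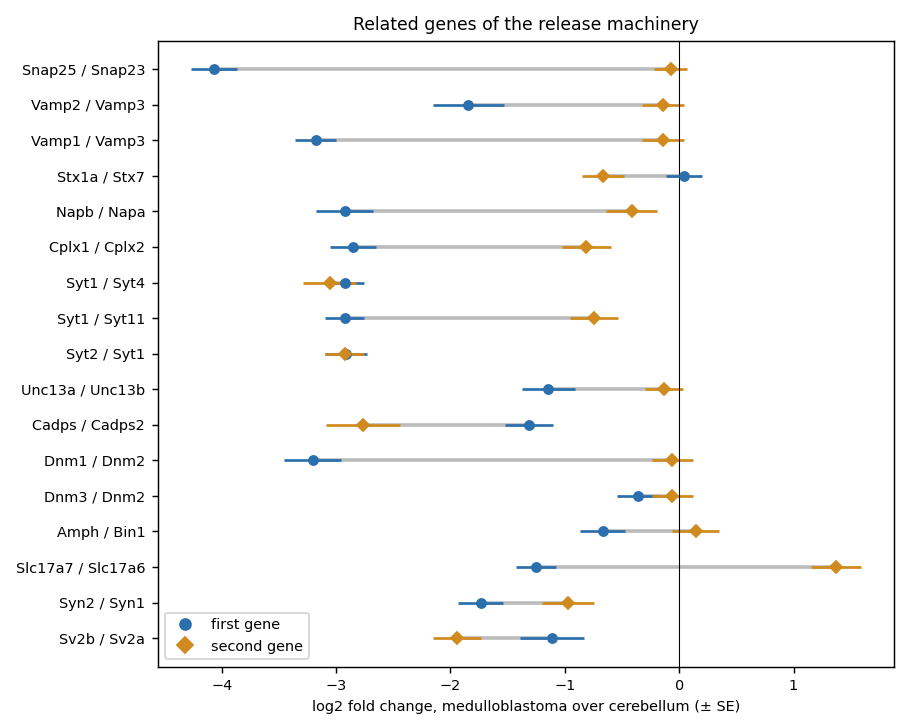
Log2 fold change of medulloblastoma over cerebellum, with bars of ± 1 SE from limma, for the members of 17 pairs of related genes. The grey line joins the first gene (blue circle) to the second (orange diamond), and it is longest for Snap25 and Snap23, Dnm1 and Dnm2, and Vamp1 and Vamp3.

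How far the values depend on the probe set was examined over all 157 probe sets that name only a member, of which 145 were tested. On 430A 55 of 97 were lower and 8 were higher, with 19.0% and 13.1% of all tested probe sets of that chip. The 8 higher became 3 without cerebellum sample 1 and 1 without cerebellum sample 2. On 430B 27 of 48 were lower and 0 were higher, with 9.77% and 7.85% of that chip, and 1 was higher without medulloblastoma 1 or medulloblastoma 3. Of 43 members with 2 or more tested probe sets, 14 were lower by all of them, Slc17a6 was higher by both of its own, 8 were called by none, 20 were called by some, and 0 had calls in both directions. At least 1 probe set was lower in 41 members and higher in 4, namely Stx1a, Stx6, Dnm2 and Slc17a6, with 19.4% and 13.7% of all genes. In 4 members that the chosen probe set did not call, Napa, Syt7, Bsn and Dnm3, another probe set was lower. In 6 members, Stxbp5, Napg, Rims2, Dnm2, Synj1 and Syngr1, a called probe set and another of opposite sign stood side by side, which for Stxbp5 did not hold without the 430B arrays of tumours 1 and 2. Probe sets of a gene can read different transcript ends, which was not examined here, and levels of different probe sets cannot be compared.

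**Figure D4:**
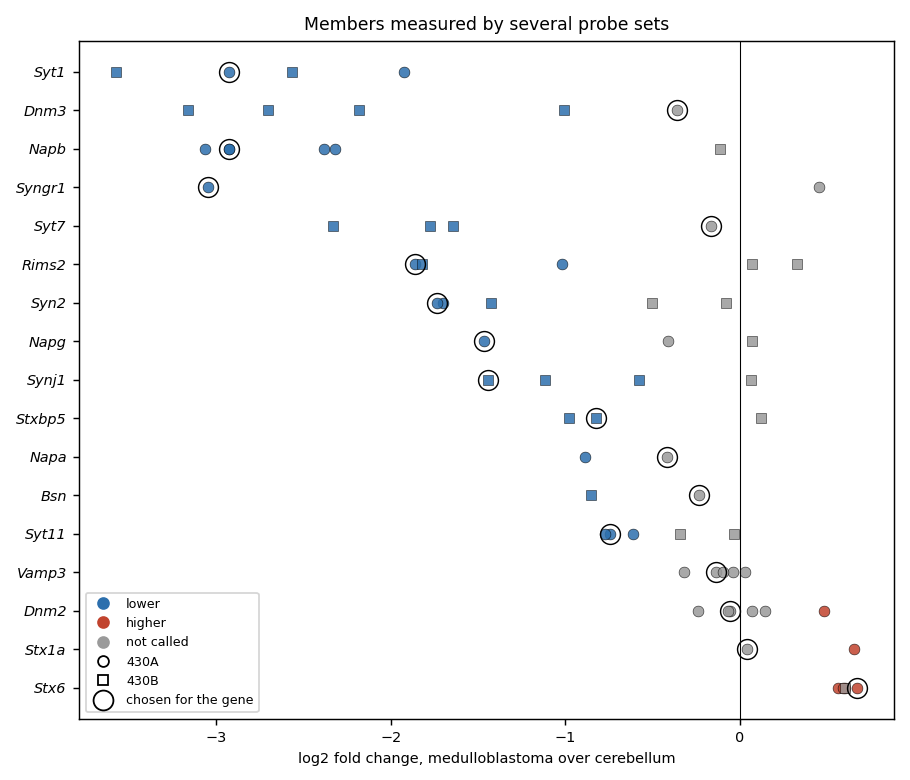
Log2 fold change of medulloblastoma over cerebellum for every tested probe set of 17 members measured by several, on 430A (circles) and 430B (squares), coloured by the call at an adjusted p below 0.05. The large ring marks the probe set that stands for the gene, and Dnm3 and Syt7 show 430B probe sets far below their ringed 430A value.

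The arrays of a tissue also differed from each other across the members. Among the 31 members that were lower by a 430A probe set, medulloblastoma 2 had the highest tumour value in 21 (67.7%), against 39.4% of all genes lower on 430A. The median difference from the cerebellum mean was -1.98, -1.54 and -1.97 log2 units in medulloblastomas 1, 2 and 3. Cerebellum sample 2 exceeded sample 1 in 24 of these 31 members (77.4%), against 68.0% of all genes lower on 430A. The marker sums of the same arrays differed as well. In medulloblastomas 1, 2 and 3 the granule neuron precursor sum was 3289, 4130.0 and 3489, the mature granule neuron sum 411, 380.3 and 338, and the oligodendrocyte sum 291, 135 and 236. In cerebellum samples 1 and 2 the precursor sum was 467 and 313, the proliferation sum 678 and 350.3, and the Purkinje cell sum 13058 and 16559. Their part in the differences between arrays was not tested.

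Markers of some other cells of the cerebellum were mostly lower too, but not those of all. Of 8 Bergmann glia and astrocyte genes 6 were lower, and the 7 of them on 430A summed to 599 to 1074 in tumours and 5970.5 to 7483 in cerebellum. Aldoc alone gave 3529 and 4157 in cerebellum samples 1 and 2, most of these cerebellum sums. Slc1a2, on 430B and so outside the sums, was not called. Gfap, of that list, was not called, but every tumour lay above both cerebellum samples (0.56). All 5 oligodendrocyte genes were lower, with sums of 135 to 291 in tumours and 3809 to 4728 in cerebellum, and 3 of 5 genes of GABAergic interneurons were lower. Of 5 microglia genes 3 were higher, with sums of 508 to 612 in tumours and 260 to 319 in cerebellum. None of the 4 endothelial and none of the 3 red blood cell genes were called.

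Another 104 genes of the vesicle cycle, listed from textbook knowledge, were measured beside the members. Of the 84 that were tested 33 (39.3%) were lower and 5 (5.95%) were higher, with a median log2 fold change of -0.33. The share lower was above the 16% of all genes and the share higher below the 10.7% of all genes. The count lower was 22 without cerebellum sample 2. Against the same 16% and 10.7%, each of the lists below had 33.3% or more lower and 15.0% or less higher, the endocytosis list being the one whose share higher exceeded that of all genes. Among other SNAREs and SNARE regulators 7 of 21 were lower, led by Snap47 (-2.02), the tomosyn relative Stxbp5l (-1.52, or -1.56 without the 430B arrays of tumours 1 and 2) and Sec22b (-1.08), a SNARE of traffic between endoplasmic reticulum and Golgi. Stxbp6, or amisyn, which can replace a synaptobrevin in the SNARE complex, was higher (1.57 ± 0.20, and 1.29 without those arrays). It had 163, 161 and 116 in medulloblastoma and 38.5 and 37.8 in cerebellum, with no overlap.

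Among other calcium sensors of exocytosis 4 of 10 were lower, including Rph3a (-1.68), an effector of Rab3, Syt9 (-1.16) and Syt14 (-0.70). The Syt14 call ended without cerebellum sample 1 (-0.77), cerebellum sample 2 (-0.62) or medulloblastoma 1 (-0.64), and it had -0.80 without the brighter pair of 430B tumour arrays. Doc2a, a high-affinity calcium sensor, was higher (1.23 ± 0.15), with 29.1, 38.6 and 37.8 in medulloblastoma and 5.23 and 6.36 in cerebellum. Every tumour was several times above both cerebellum samples, whose values lay below the array medians.

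Of 19 other active zone genes 7 were lower and 0 were higher, with Lin7a (-3.17), an adaptor of presynaptic and postsynaptic scaffolds, Rab3a (-2.30), the GTPase of synaptic vesicles, Rims3 (-1.71) and Apba1 (-1.05) at the head. Without the 430B arrays of tumours 1 and 2 Lin7a had -3.17, Rims3 -1.57 and Apba1 -0.95. Of 20 other endocytosis genes 8 were lower, among them Pacsin1 (-2.71), a membrane-bending partner of dynamin, Dnajc6 (-2.46), the neuronal auxilin that uncoats vesicles (-2.61 without those arrays), Eps15 (-1.73) and Cltc (-1.57), the clathrin heavy chain. In that list 3 were higher, Sh3glb1 (1.11), Itsn1 (0.99) and Sh3gl3 (0.93), which belong to the endophilin and intersectin families. Of 14 other vesicle membrane genes 7 were lower and 0 were higher, led by Sncb (-2.16), the beta-synuclein, Scamp5 (-1.53), Scamp1 (-1.40) and Atp6v0a1 (-1.31), a subunit of the proton pump.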

How the data were processed

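The deposited tables give 1 linear intensity for each probe set on each array. Trizol RNA was turned into biotinylated cRNA by the Affymetrix procedure, per the labels' protocols. How the authors summarised and scaled the probes is not given in the sources used here, and precision is limited by the number of arrays.

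Sample titles gave the groups and replicate numbers. Intensities were taken as log2(value + 16), so fold changes understate those of low probe sets, and no further normalization was applied. On each chip the dimmest 25% of probe sets by mean were dropped and the others (16969 and 16883) fitted with limma 3.58.1 in R 4.3.3 (lmFit, eBayes with trend, two-sided, Benjamini-Hochberg over the chip, calls below 0.05). The fit was also run on simulated data with independent noise and few planted changes. That setting is unlike these arrays and does not measure the accuracy of the calls. Gene names came from the platform annotation. Each gene stands by 1 probe set naming no other gene, taken from 430A where possible, without the suffixes _s_at and _x_at where possible, and otherwise by the highest mean. The members, lists, pairs, motifs and tests were chosen with earlier results of these data known. Values per array are given for the 5 called members of each role with the largest absolute change, members called higher, members of the pairs and members whose probe sets disagree. Of each other list up to 4 called genes are named, by absolute log2 fold change. Among other endocytosis genes Sh3glb1, Itsn1 and Sh3gl3, and the further probe sets of Stx1a, Bsn, Dnm3 and Slc17a6, were chosen after their values were seen. Lists were described by counts and medians and given no set test. Chromosomes and promoters came from RefSeq, GRCm38.p6. Alternatives changed 1 choice at a time, and the omission of both brighter 430B tumour arrays was added after the data were seen.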

Additional observations from a re-analysis of the deposited data

How the results depend on the processing

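All called members kept their direction under every alternative. Of 1088 member fold changes under the alternatives 1034 kept their side of the threshold, 41 lost the call and 13 gained it. Part of the 1034 was fixed in advance, so the count does not measure stability. Alternatives that act on 430B alone, and the use of 430A genes only, leave the 51 members of 430A as they were. The 1088 also include the fit with 1 tumour array left on 430B. Snap23, Snap29, Stx1a, Syt3, Syt5, Unc13b, Bin1, Dnm2 and Syn3, which were not called, lay near 0 and changed sign under at least 1 alternative, Snap29 (0.04) and Dnm2 (0.03) with quantile normalization. Of 39 called members 27 kept the call under every alternative at an adjusted p of 0.05. Outside the fits that left out a replicate and that threshold, the count of members lower lay between 34 (quantile normalization) and 39 (replicate block), apart from 31 with genes of 430A only, and it was 31 at an adjusted p below 0.01. At that stricter threshold 1 member was higher, 0 SNAREs and 0 broadly expressed members were higher, and 3 probe sets of 430A were higher. With the brightest probe set, and with a filter of 50%, 2 SNAREs and 2 members of neuronal or regulated secretion were higher, as Stx1a joined (0.65). On 430B 1 member probe set was higher with quantile normalization, with equal array medians, with the replicate block and without the arrays of tumours 1 and 2. That last fit leaves 1 tumour array on 430B and takes its spread from the cerebellum arrays alone, so its calls are not a test of the tumours. Leaving out each replicate gave 28 to 36 members lower and 1 to 2 higher, by role 9 to 12 SNAREs lower and 0 to 1 higher, 4 to 5 synaptotagmins, 7 to 7 active zone genes, 3 to 5 endocytosis genes and 5 to 8 vesicle membrane genes lower with 1 to 1 higher. It gave 24 to 31 members of neuronal or regulated secretion lower and 1 to 1 higher, 3 to 5 broadly expressed members lower and 0 to 1 higher, 45 to 55 and 22 to 32 member probe sets lower on 430A and 430B with 1 to 9 and 0 to 1 higher, and 22 to 36 other genes of the vesicle cycle lower with 4 to 6 higher. These fits left out arrays of the same number on both chips, which for the tumours were not the best matches on the shared probe sets, so a count over both chips may lack arrays of different tumours. Fewer samples were in those fits, and a lone cerebellum array is assumed to vary like the tumours. Same-numbered samples deviated together with r = -0.03 and 0.17 on 430A and 0.11 and 0.02 on 430B. The deviations of 2 cerebellum arrays mirror each other, so these values cannot settle whether the numbers pair samples. The main fit assumed no pairing. With the replicate block 39 members were lower and 2 higher, with Vamp7 (-0.97), Synpr (-0.69) and Sv2c (-0.47) gained and Syngr3 (-0.45) lost. Quantile normalization ended the calls of Stx7 (-0.51), Syt11 (-0.57) and Amph (-0.43), and the cause was not tested. For Sv2b and Sv2a the difference of 0.83 became 0.46 when the shared probe sets were used to scale 430B. Low signal limits members near the array medians, such as Snap23, Stx1a, Syt3, Syt5, Unc13b and Syn3.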
